A study of Anas platyrhynchos with 20 samples.

Results

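The collagen genes are the genes of the duck whose symbol in the table is COL, a type number, A and a chain number. By this rule 41 of the 25117 genes in the table are collagen genes, of which 10 encode fibrillar collagens (types I, II, III, V, XI, XXIV and XXVII), 5 encode chains of type IV of the basement membrane and 26 encode other types. They were measured by RNA-seq in the liver and the breast muscle of male Runzhou white-crested ducks. HL and HM are the liver and the breast muscle of ducks of the high linseed oil group, fed a basal diet to which 2% linseed oil was added, and CL and CM are those of the control group, fed that basal diet with 2% duck oil in place of it. The ducks were 28 days old when the feeding began, it lasted 28 days, and the tissues were taken at its end. The labels give day 28 without saying what it counts from, and the sources name no allele or agent for any group beside the diet. Each group had 5 libraries, 20 in all, from 10 ducks that had been picked for their ratio of n-3 polyunsaturated fatty acids, the control ducks from the low end and the linseed oil ducks from the high end. Each library was made from a piece of whole tissue, so all cell types of the organ contributed to it.

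Collagens are secreted proteins in which chains wind around each other into a triple helix. The fibrillar types form the cross-banded fibrils that give tissue its tensile strength, type IV forms the sheet-like network under endothelial and epithelial cells and around muscle fibres, and most other types bind to fibrils, link cells to the matrix or sit in the cell membrane. In skeletal muscle the collagens make up the endomysium, perimysium and epimysium and carry the force of the fibres to the tendon. In the healthy liver they lie mainly in the portal tracts and as a thin matrix along the sinusoids, where stellate cells, portal fibroblasts and endothelial cells make them.

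The depth of the libraries was 15423306 to 16705165 fragments in HL, 15417718 to 16584887 in CL, 11852903 to 13309021 in HM and 12374035 to 13432987 in CM. All 6 hepatocyte markers examined were far higher in liver and all 4 muscle fibre markers found in the table were far higher in breast muscle, in both diets, so each library carried the markers of its labelled tissue. The FPKM values are fragments scaled for the length of the gene and by 1 factor per library. This factor matched a median-of-ratios factor over all 20 libraries (the median ratio of a library's genes to their geometric means). The tissue differences given here rest on this scaling, and the summed FPKM differed between libraries, with 510246 to 698784 in HL and 639541 to 817538 in CL. Library HM 2 stood apart: its FPKM values summed to 597368, against 335064 to 361863 in the other HM libraries and 341715 to 388387 in CM. Where a call or a count of calls changed without HM 2, the value without it is given as well. Among the livers, CL 1 had the fewest genes above 0 FPKM of all 20 libraries, at 14011.

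The level of the collagens differed far more between the tissues than between the diets. The summed FPKM of the 41 genes was 88.0 ± 12.2 in HL and 1399 ± 174 in HM, and 86.8 ± 24.7 in CL and 1439.7 ± 277 in CM (SD, n = 5 each). Of this, fibrillar collagens made up 34.3 FPKM in HL and 37.5 FPKM in CL, type IV 28.1 FPKM in HL and 22.5 FPKM in CL, and the others 25.6 FPKM in HL and 26.8 FPKM in CL. In breast muscle type IV was the largest class by mean, with 595 FPKM in HM and 619 FPKM in CM, followed by the fibrillar collagens with 501 FPKM in HM and 481 FPKM in CM and the others with 303 FPKM in HM and 339 FPKM in CM. This order did not hold in every HM library. Type IV ran from 352 to 839 FPKM in HM and from 535 to 766 FPKM in CM. The fibrillar collagens ran from 241 to 708 FPKM in HM and from 319 to 625 FPKM in CM. In total 36 of the 41 genes had a higher mean in breast muscle and 5 had a higher mean in liver, and 4 of these 5 (COL6A6, COL7A1, COL17A1 and COL19A1) stayed below 1 FPKM in every library. In RNA from whole tissue, fewer cells of a type and less RNA per cell cannot be told apart.

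**Figure D1:**
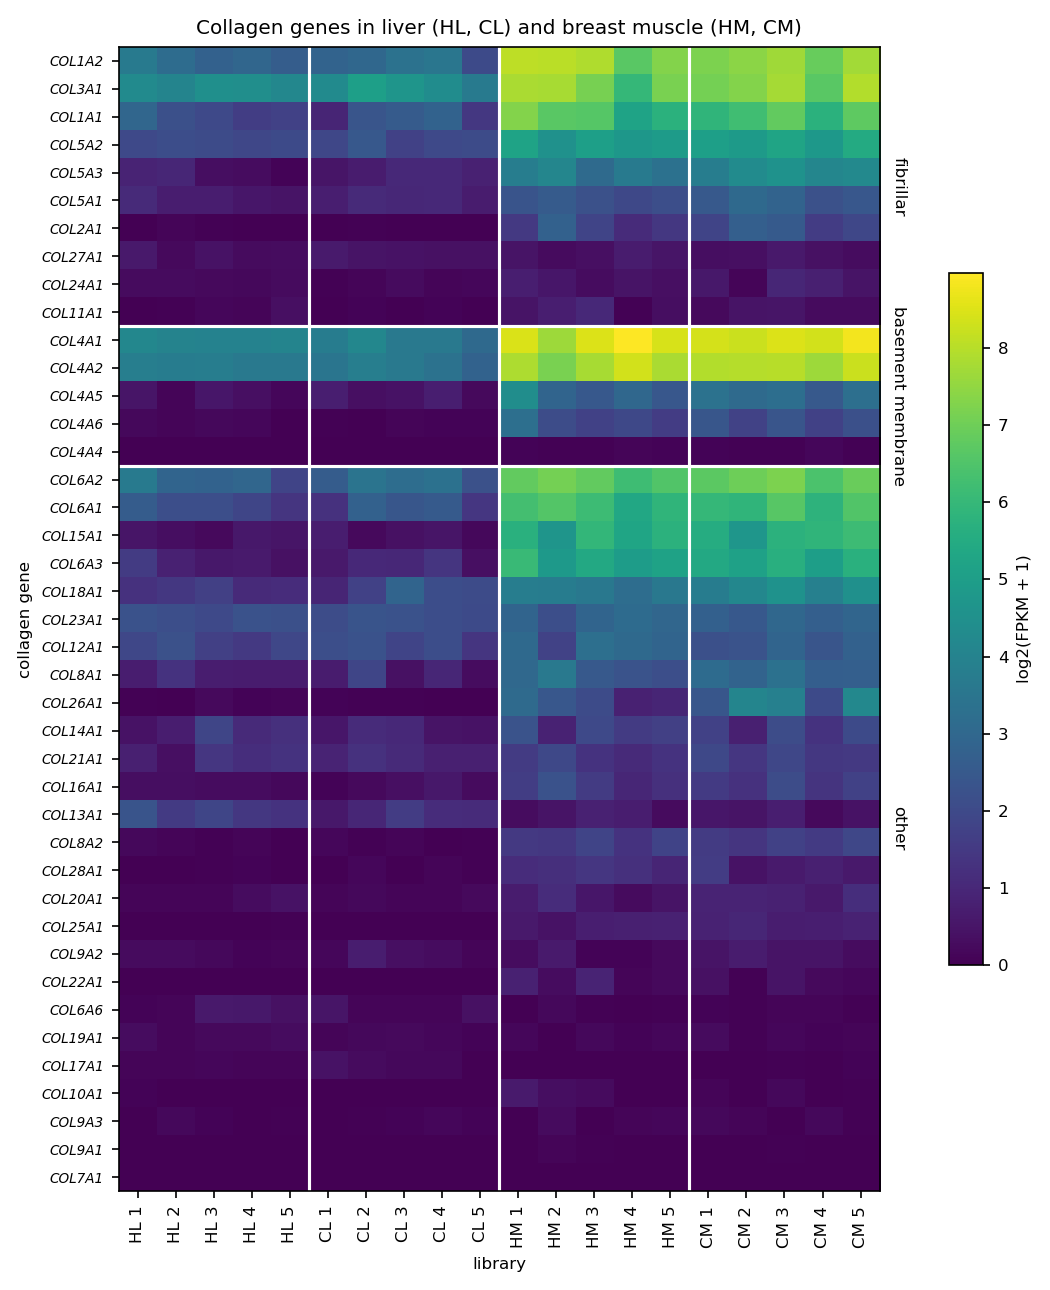
Levels of the 41 collagen genes (rows, by class and then by mean level) in the 20 libraries (columns, by group), with log2(FPKM + 1) as the colour. The columns of breast muscle (HM, CM) are brighter than those of liver (HL, CL) for most rows of each class, while HL and CL, or HM and CM, look alike.

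Liver and breast muscle were compared within each diet, as HL vs. HM and CL vs. CM, with limma on log2(FPKM + 1). The libraries were treated as independent, because the labels do not say which livers and breast muscles came from the same duck. A gene entered the test if 5 or more libraries of the comparison reached 1 FPKM, and DEGs (differentially expressed genes) were those whose adjusted p was below 0.05 and whose log2 fold change exceeded 1 in size. In HL vs. HM 23 of the 41 collagen genes passed the filter, and 18 of them were lower and 1 was higher in liver (19 and 1 without HM 2, and the same counts without HL 2). Over all genes tested there, 20.4% were called lower and 19.8% higher. In CL vs. CM 24 passed the filter, and 20 of them were lower and 0 higher, where 21.9% of all genes were called lower and 20.4% higher. The median log2 fold change of the collagen genes tested was -2.70 for HL vs. HM and -2.77 for CL vs. CM, beside 0.01 and 0.02 over all genes tested.

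A collagen gene that passed the filter only through the tissue in which it is high had to differ between the tissues, so the genes that passed in both tissues are given apart. These were COL1A1, COL1A2, COL3A1, COL4A1, COL4A2, COL5A2, COL6A1, COL6A2, COL12A1, COL14A1, COL18A1, COL21A1 and COL23A1, 13 in all. Of them 9 were lower in liver, 0 were higher and 4 were not DEGs in HL vs. HM, and the counts were the same in CL vs. CM. Without HM 2 COL12A1 was a DEG lower in liver as well in HL vs. HM, at -1.22 (limma, adjusted p = 4.08e-05). The libraries of both tissues did not overlap for 9 of the 13 in HL vs. HM and for 11 in CL vs. CM, against 51.8% and 55.4% of all genes tested. In HL vs. HM COL12A1 and COL23A1 overlapped through HM 2 alone. Their highest HL values were 3.73 and 3.82 FPKM, and the other HM libraries had at least 6.44 and 6.36 FPKM. All 9 genes in HL vs. HM and all 11 in CL vs. CM that passed only through breast muscle were lower in liver without overlap, and COL13A1, which passed only through liver in HL vs. HM, was higher. For these genes, among them COL2A1, COL5A1, COL5A3, COL6A3, COL8A1 and COL15A1, fold changes are given as a description only.

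**Figure D2:**
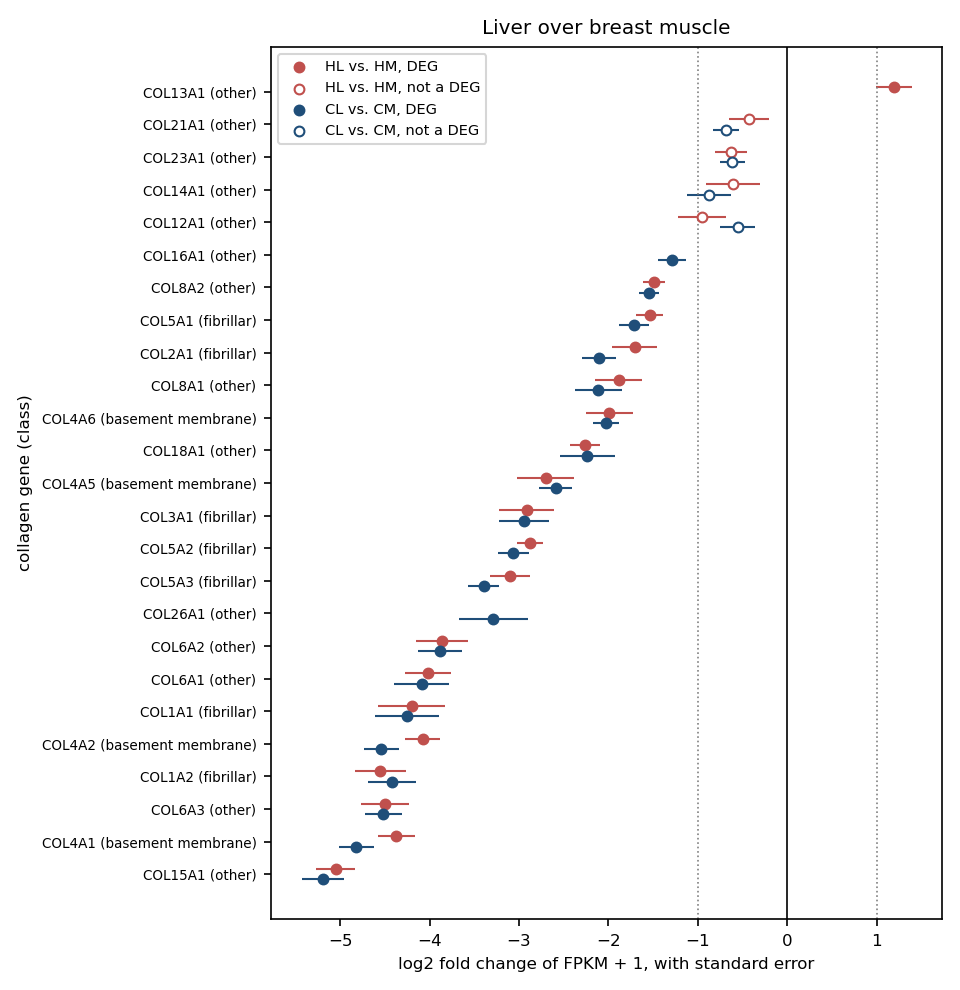
Log2 fold change (horizontal axis) of each tested collagen gene (rows, class in brackets) for HL vs. HM and for CL vs. CM, with standard errors; filled points are DEGs, open points are not, and dotted lines mark -1 and 1. COL15A1 lies lowest in both comparisons, at -5.05 and -5.19, and COL13A1 is the one gene above 0.

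The major fibrillar collagens were lower in liver, and the order of the chains differed between the tissues. Type I, built from the chains of COL1A1 and COL1A2, is the main collagen of tendon and fascia, and type III (COL3A1) accompanies it in thinner, reticular fibres. COL3A1 had 18.4, 15.4, 21.3, 20.4 and 16.8 FPKM in HL against 229, 223, 138, 61.5 and 144 FPKM in HM. On the control diet it had 18.7, 32.6, 24.3, 19.6 and 11.7 FPKM in CL against 136, 159, 216, 101 and 242 FPKM in CM. Every liver library lay below every breast muscle library, with log2 fold changes of -2.91 (SE 0.31) for HL vs. HM and -2.94 (SE 0.28) for CL vs. CM (limma, adjusted p = 3.29e-06 and 9.69e-07). Of the fibrillar FPKM, COL3A1 took 55.6% (43.1% to 64.5%) by library in liver and 33.0% (25.5% to 38.7%) in breast muscle.

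COL1A2 had 11.8, 7.95, 5.87, 6.70 and 5.31 FPKM in HL against 267, 265, 237, 101 and 156 FPKM in HM. Control ducks had 6.26, 7.01, 9.33, 10.4 and 3.08 FPKM in CL against 146, 168, 207, 116 and 209 FPKM in CM. It was lower in liver, at -4.55 (SE 0.29) for HL vs. HM and -4.42 (SE 0.27) for CL vs. CM, and the libraries of both tissues did not overlap. The mean over the 10 breast muscle libraries was 25.4 times that of the 10 livers, against 8.28 times for COL3A1. COL1A1 had 6.83, 3.56, 2.95, 2.08 and 2.31 FPKM in HL against 156, 100.03, 96.5, 35.6 and 52.0 FPKM in HM. On the control diet its values were 0.893, 4.16, 4.89, 6.11 and 1.74 FPKM in CL against 58.1, 74.3, 111, 52.0 and 105 FPKM in CM. Its tissue differences were -4.20 (SE 0.38) and -4.25 (SE 0.36) (limma, adjusted p = 7.45e-07 and 2.39e-07). COL1A1 was low in 1 liver, CL 1, where its value rests on 38 fragments, while COL1A2 was not.

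Type V collagen sits inside type I fibrils and limits their thickness, and its chains were lower in liver too. COL5A2 had 2.94, 3.31, 3.13, 2.80 and 3.06 FPKM in HL against 35.8, 22.2, 32.7, 25.6 and 29.6 FPKM in HM. Control ducks had 2.74, 4.48, 2.30, 2.98 and 3.13 FPKM in CL against 32.2, 28.6, 36.6, 26.7 and 43.5 FPKM in CM. COL5A2 varied less between ducks than type I did, and its fold changes were -2.88 (SE 0.15) for HL vs. HM and -3.06 (SE 0.17) for CL vs. CM. COL5A1 had 1.11, 0.651, 0.635, 0.471 and 0.400 FPKM in HL against 4.01, 5.03, 3.63, 2.87 and 3.48 FPKM in HM, and it had 0.691, 1.10, 0.978, 1.07 and 0.589 FPKM in CL against 4.69, 7.29, 6.20, 3.72 and 4.46 FPKM in CM. COL5A3, the third chain, had 0.850, 0.942, 0.261, 0.235 and 0.0750 FPKM in HL against 13.02, 16.2, 7.66, 11.9 and 9.19 FPKM in HM, and it had 0.422, 0.614, 1.03, 1.06 and 0.755 FPKM in CL against 12.8, 19.3, 23.04, 16.2 and 17.9 FPKM in CM. In breast muscle COL5A3 thus exceeded COL5A1, while in liver both stayed near or below 1 FPKM. The tissue differences were -1.54 and -1.71 for COL5A1 and -3.10 and -3.40 for COL5A3, each time with HL vs. HM given before CL vs. CM.

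Type II (COL2A1) is the fibrillar collagen of cartilage. It had 0, 0.0806, 0.0422, 0 and 0 FPKM in HL against 1.83, 5.89, 2.56, 1.16 and 1.76 FPKM in HM, and 0, 0.0440, 0, 0.0195 and 0 FPKM in CL against 2.60, 5.55, 4.87, 2.03 and 2.73 FPKM in CM. It was thus present in all 10 breast muscles, differing by -1.70 for HL vs. HM and by -2.10 for CL vs. CM, and its highest values were those of HM 2 and CM 2. The cartilage markers ACAN, MATN1 and CNMD averaged at most 0.0498 FPKM in any group, and SOX9, which other tissues also express, averaged 3.01 FPKM in HL and 0.345 FPKM in HM, and 4.95 FPKM in CL and 0.458 FPKM in CM. The other fibrillar genes were not tested: COL11A1 ran up to 0.290 FPKM in liver and 1.05 FPKM in breast muscle, COL24A1 up to 0.205 FPKM in liver and 0.933 FPKM in breast muscle, and COL27A1 up to 0.549 FPKM in liver and 0.620 FPKM in breast muscle.

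**Figure D3:**
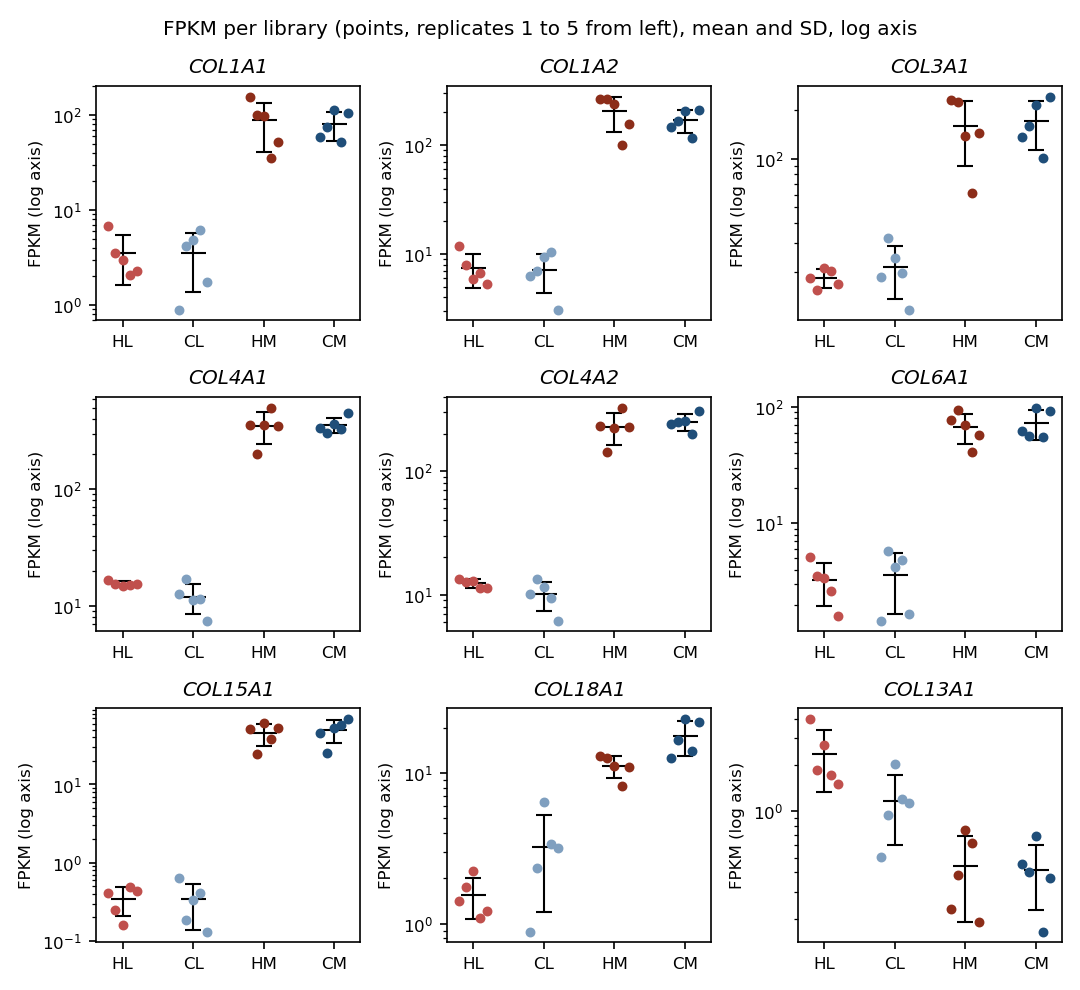
FPKM (log axis) of 9 collagen genes in the libraries of HL, CL, HM and CM; points are libraries and the bars are the mean and the SD (n = 5). Liver and breast muscle do not overlap for the first 8 genes shown, all lower in liver, and COL13A1 runs the other way in HL vs. HM.

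In the basement membrane class COL4A1 and COL4A2 made up nearly all of the transcript in both tissues. Their chains assemble into the type IV network found in the basement membranes of nearly all tissues. COL4A1 had 16.6, 15.2, 14.7, 14.9 and 15.4 FPKM in HL against 353, 201, 358, 501 and 347 FPKM in HM. In control ducks the values were 12.5, 17, 11.3, 11.4 and 7.42 FPKM in CL against 338, 306, 361, 326 and 447 FPKM in CM. COL4A1 had the highest mean FPKM of all 41 collagen genes in breast muscle and the second highest, after COL3A1, in liver. COL4A2 had 13.5, 12.6, 12.8, 11.2 and 11.4 FPKM in HL against 232, 142, 223, 328 and 229 FPKM in HM. Control ducks had 10.1, 13.3, 11.4, 9.40 and 6.13 FPKM in CL against 241, 253, 256, 202 and 307 FPKM in CM. The differences were -4.37 (SE 0.21) for HL vs. HM and -4.82 (SE 0.20) for CL vs. CM for COL4A1, and -4.08 (SE 0.20) and -4.54 (SE 0.19) for COL4A2 (limma, adjusted p from 2.42e-10 to 2.06e-09). Both genes stand head to head, with 70 bases between them in the table's gene positions.

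COL4A5 and COL4A6 encode the chains of a second type IV network, known in mammals from smooth muscle and some epithelia. COL4A5 had 0.439, 0.0878, 0.461, 0.281 and 0.112 FPKM in HL against 20.3, 6.38, 4.58, 6.94 and 4.40 FPKM in HM, and it had 0.696, 0.288, 0.367, 0.699 and 0.177 FPKM in CL against 9.51, 7.65, 8.50, 4.70 and 8.58 FPKM in CM. COL4A6 had 0.143, 0.0769, 0.1498, 0.129 and 0.0126 FPKM in HL against 8.72, 3.23, 2.35, 2.88 and 1.99 FPKM in HM, and it had 0.0296, 0.0120, 0.0932, 0.0745 and 0.0588 FPKM in CL against 4.28, 2.43, 4.21, 2.34 and 3.58 FPKM in CM. Library HM 1 was the highest of all 20 for both genes, which likewise stand head to head, 325 bases apart. The tissue differences were -2.70 and -2.59 for COL4A5 and -1.99 and -2.02 for COL4A6. COL4A4, a chain of the glomerular basement membrane, was not tested: it had 0 fragments in all 10 livers and 3 to 17 in the breast muscles, which is at least 17.02-fold higher in breast muscle when a floor of 3 fragments over the 10 livers is used.

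The breast muscles were not in the same order for type IV and type I. Library HM 4 had the highest COL4A1 and COL4A2 of the 10 breast muscles and the lowest COL1A1, COL1A2 and COL3A1. HM 2 had the lowest COL4A1 and COL4A2, while its COL1A2 was the second highest and its COL1A1 the fourth highest of the 10. CM 5, by contrast, was high for both types, with the second highest COL4A1 and COL4A2, the third highest COL1A1 and the highest COL3A1.

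Among the other collagens, type VI was the most abundant in breast muscle. Its chains form the beaded filaments next to the basement membrane of muscle fibres, and loss of COL6A1, COL6A2 or COL6A3 causes muscle disease in humans. COL6A2 had 11.5, 6.37, 6.10, 6.77 and 2.54 FPKM in HL against 111, 134, 111, 71.2 and 92.3 FPKM in HM. Under the control diet there were 5.04, 9.94, 8.29, 9.10 and 3.70 FPKM in CL against 103, 126, 145, 86.2 and 119 FPKM in CM. COL6A2 led this class in both tissues. COL6A1 had 5.17, 3.49, 3.41, 2.64 and 1.59 FPKM in HL against 77.5, 93.9, 69.9, 40.8 and 57.9 FPKM in HM. Control ducks had 1.45, 5.82, 4.25, 4.82 and 1.66 FPKM in CL against 62.1, 57.0, 98.98, 55.4 and 92.8 FPKM in CM. Every liver library lay below every breast muscle library for both, and the differences were -3.86 (SE 0.29) and -3.88 (SE 0.24) for COL6A2 and -4.02 (SE 0.26) and -4.09 (SE 0.30) for COL6A1. COL6A3, which supplies the long chain of the heterotrimer, had 1.96, 0.769, 0.509, 0.555 and 0.308 FPKM in HL against 66.9, 27.2, 41.9, 30.2 and 35.3 FPKM in HM, and it had 0.527, 1.04, 0.984, 1.58 and 0.302 FPKM in CL against 42.1, 34.5, 50.1, 31.4 and 50.6 FPKM in CM. Its differences were -4.49 (SE 0.27) and -4.52 (SE 0.21). COL6A6, an alternative long chain, was not tested and reached 0.518 FPKM in liver and 0.145 FPKM in breast muscle.

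COL15A1 and COL18A1, the multiplexins, belong to the zone around basement membranes, and COL18A1 also carries the endostatin fragment. COL15A1 had 0.413, 0.245, 0.160, 0.482 and 0.439 FPKM in HL against 50.6, 24.9, 60.6, 37.9 and 53.4 FPKM in HM. In control ducks it had 0.638, 0.184, 0.333, 0.414 and 0.131 FPKM in CL against 45.8, 25.2, 53.3, 57.1 and 69.4 FPKM in CM. On the log2(FPKM + 1) scale it had the largest tissue difference of the collagen genes tested, at -5.05 (SE 0.22) for HL vs. HM and -5.19 (SE 0.24) for CL vs. CM. Every liver was below 1 FPKM, so that it passed the filter only through breast muscle. As the mean FPKM of the 10 breast muscles over that of the 10 livers, COL15A1 came to 139, below COL2A1 at 166 and COL26A1 at 147. COL18A1 had 1.41, 1.75, 2.24, 1.10 and 1.21 FPKM in HL against 12.9, 12.5, 11.2, 8.16 and 10.9 FPKM in HM. Under duck oil its values were 0.885, 2.35, 6.44, 3.36 and 3.17 FPKM in CL against 12.6, 16.7, 22.95, 14.01 and 21.9 FPKM in CM. COL18A1 differed less, by -2.26 (SE 0.17) and -2.24 (SE 0.31), and CL 3 was the highest of the livers.

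COL13A1, a collagen of the cell membrane known from the neuromuscular junction in mice and humans, was the one collagen DEG that was higher in liver. It had 4.01, 1.86, 2.71, 1.72 and 1.505 FPKM in HL against 0.232, 0.384, 0.760, 0.626 and 0.190 FPKM in HM, so that the lowest liver lay above the highest muscle. The log2 fold change was 1.19 (SE 0.20), and every HM library was below 1 FPKM, so that it passed the filter only through liver. In CL vs. CM it did not pass the filter, with 0.503, 0.946, 2.03, 1.20 and 1.13 FPKM in CL against 0.455, 0.403, 0.689, 0.164 and 0.369 FPKM in CM, where CL 1 lay inside the range of the breast muscles. COL23A1, another membrane collagen and the second of this class in liver, had 3.82, 3.48, 2.97, 3.76 and 3.55 FPKM in HL against 6.36, 3.44, 6.46, 7.76 and 6.71 FPKM in HM, and it had 3.22, 4.09, 3.81, 3.37 and 3.02 FPKM in CL against 5.69, 4.58, 7.02, 5.64 and 6.63 FPKM in CM. It was lower in liver by an adjusted p of 0.00809 and 0.00151 (limma) but by less than the fold threshold, at -0.63 and -0.61. Without HM 2, the lowest HM library, it was -0.79 in HL vs. HM (limma, adjusted p = 7.23e-05). COL17A1, the membrane collagen of hemidesmosomes, stayed at or below 0.348 FPKM in liver and 0.0708 FPKM in breast muscle, and COL25A1, known in mice from motor nerve ingrowth, had 7 fragments over the 10 livers against 46 to 168 in each breast muscle.

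The fibril-associated collagens COL12A1, COL14A1 and COL21A1, which bind to the surface of fibrils, were not DEGs in either comparison with all libraries on the log2(FPKM + 1) scale. COL12A1 averaged 2.68 ± 0.7098 FPKM in HL and 6.46 ± 2.43 FPKM in HM, and 2.95 ± 0.858 FPKM in CL and 4.78 ± 1.29 FPKM in CM (SD, n = 5 each). Its log2 fold changes were -0.95 and -0.55 (limma, adjusted p = 0.00727 and 0.0256). COL14A1 came to -0.61 and -0.87 (limma, adjusted p = 0.0933 and 0.00719), and COL21A1 to -0.43 and -0.68 (limma, adjusted p = 0.110 and 0.00125). Some of these calls changed with 1 library left out, with a smaller pseudocount or on fragments recovered from the FPKM. Without HM 2, which was low for COL12A1, that gene was a DEG in HL vs. HM at -1.22 (limma, adjusted p = 4.08e-05), and without HL 2 it was one at -1.05 (limma, adjusted p = 0.00724). COL14A1 was -0.81 in HL vs. HM without HM 2, which passed the adjusted threshold but not the fold threshold (limma, adjusted p = 0.0192). Without CM 2 COL14A1 was a DEG in CL vs. CM at -1.07 (limma, adjusted p = 6.78e-04). With a pseudocount of 0.1 COL12A1 was a DEG in HL vs. HM at -1.16, and COL14A1 and COL21A1 were DEGs in CL vs. CM at -1.51 and -1.10. With a pseudocount of 0.5 COL12A1 was a DEG in HL vs. HM at -1.06 and COL14A1 in CL vs. CM at -1.13. On recovered fragments (voom) COL12A1 was a DEG in HL vs. HM at -1.18. There COL14A1 and COL21A1 were DEGs in CL vs. CM at -1.64 and -1.16.

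COL16A1 had 0.0731, 0.158, 0.285, 0.491 and 0.194 FPKM in CL against 1.89, 1.44, 3.21, 1.56 and 2.29 FPKM in CM and was lower in liver, at -1.29 (SE 0.16) (with quantile normalization -0.92, under the fold threshold), and it did not pass the filter in HL vs. HM, where it ran from 0.145 to 0.272 FPKM in HL against 0.959 to 3.81 FPKM in HM.

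The remaining fibril-associated members were below the filter in every comparison. COL22A1, known from the junction of muscle and tendon in mice, had 0 fragments in all 10 livers and 3 to 78 in the breast muscles, at least 65.3-fold higher with a floor of 3 fragments over the livers. The highest FPKM in liver and in breast muscle were 0.340 in liver and 1.25 in breast muscle for COL20A1, 0.227 in liver and 0.189 in breast muscle for COL19A1, 0.661 in liver and 0.613 in breast muscle for COL9A2, and 0.154 in liver and 0.196 in breast muscle for COL9A3. COL9A1 had 0 fragments in liver and 11 over the 10 breast muscles. Type IX is a cartilage collagen, as is COL10A1 of hypertrophic cartilage, which had 2 fragments over the 10 livers and 54 over the breast muscles, and COL7A1 of the anchoring fibrils of skin had 5 fragments in liver and 1 in breast muscle.

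Type VIII forms hexagonal networks in the walls of vessels and in the eye. COL8A1 had 0.657, 1.48, 0.632, 0.624 and 0.607 FPKM in HL against 7.10, 11.2, 4.64, 3.87 and 3.44 FPKM in HM, and it had 0.614, 2.67, 0.332, 0.936 and 0.215 FPKM in CL against 7.73, 6.33, 9.13, 5.48 and 5.62 FPKM in CM. COL8A2 had 0.133, 0.0884, 0.0309, 0.0796 and 0 FPKM in HL against 1.81, 1.72, 2.57, 1.52 and 2.47 FPKM in HM, and it had 0.119, 0.0322, 0.0893, 0 and 0.0473 FPKM in CL against 1.95, 1.61, 2.32, 1.86 and 2.79 FPKM in CM. Both were lower in liver, at -1.89 and -2.11 for COL8A1 and at -1.49 and -1.54 for COL8A2. COL26A1, described in the testis and ovary of mice, had 0.0620, 0.0377, 0.0279, 0 and 0 FPKM in CL against 4.24, 16, 14.1, 3.08 and 17.3 FPKM in CM, a difference of -3.29 (SE 0.38), and it did not pass the filter in HL vs. HM. COL28A1, known from peripheral nerve in mice, ran from 0.0147 to 0.0528 FPKM in HL against 0.907 to 1.67 FPKM in HM and was not tested between the tissues.

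Markers of other cells moved between the tissues as well. As with the collagens, a gene that passed the filter only through the tissue in which it is high had to differ. The counts for these markers, and for the gene lists that follow, do not set such genes apart. Among 9 markers of fibroblasts and stellate cells, 5 were lower and 4 higher in liver in both comparisons, and their summed FPKM was 127 to 175 in HL against 392 to 516 in HM and 115 to 169.9 in CL against 319.9 to 581 in CM. Among them PDGFRA, PDGFRB and LUM were lower in liver, and HAND2, RELN and LRAT were higher. The rest of the list, DCN, FBLN1 and RGS5, did not all move in the same direction. Endothelial markers summed to 38.8 to 50.8 FPKM in HL against 174 to 485 FPKM in HM, and to 14.1 to 27.3 FPKM in CL against 265 to 475 FPKM in CM. Of 7, 5 were lower and 1 (STAB2, of sinusoids) higher in HL vs. HM, and 6 of the 6 tested were lower in CL vs. CM. Of 4 markers of smooth muscle and pericytes, 4 were lower in liver in both comparisons; the list includes DES, which muscle fibres also express. Macrophage markers went the other way in HL vs. HM, with 5 of 6 higher, and 1 of 6 was higher in CL vs. CM. Tendon markers summed to 0 to 0.285 FPKM in HL against 6.11 to 39.9 FPKM in HM and to 0 to 0.114 FPKM in CL against 4.64 to 12.98 FPKM in CM, and 3 of the 5 (TNMD, SCX and FMOD) were at 0 in every CL library. The part of these cells in the collagen differences was not tested.

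The genes that modify, fold and cross-link collagen did not all follow the collagens. The collagen chaperone SERPINH1 (HSP47) averaged 13.7 FPKM in HL and 103 FPKM in HM, and 10.4 FPKM in CL and 104 FPKM in CM. By contrast P4HB, which is both a subunit of prolyl 4-hydroxylase and a general disulfide isomerase, averaged 638 FPKM in HL and 53.6 FPKM in HM, and 529 FPKM in CL and 50.9 FPKM in CM. Of the 14 modification and folding genes tested, 7 were lower in liver and 2, P4HB and PPIB, higher in both comparisons. The catalytic subunits P4HA1 and P4HA2 were lower, at -1.63 and -1.70 in HL vs. HM and -1.74 and -1.73 in CL vs. CM. All 4 lysyl oxidases tested, which cross-link collagen, were lower in liver, and the largest differences were those of LOXL1, -3.57 and -4.10, and LOX, -2.82 and -2.49. Only 2 lysyl oxidases passed the filter in HL vs. CL, against 4 in HM vs. CM. The others passed through breast muscle, where they are high, so their differences are a description only.

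Secretion and processing genes were split. MIA2, MIA3 (TANGO1), which loads collagen for export, and BMP1, which trims its C-terminus, were higher in liver in both comparisons, and ADAMTS2, which trims the N-terminus, was lower. Of the 7 tested in HL vs. HM, 3 were higher and 2 lower, and of the 8 in CL vs. CM 3 were higher and 2 lower. Among the enzymes that break collagen down and their inhibitors, 5 of 8 were lower and 1 higher in HL vs. HM, and 6 of 8 lower and 1 higher in CL vs. CM. MMP2, which cleaves type IV, differed by -4.05 and -4.26, and the one higher gene was cathepsin B (CTSB), at 1.48 and 1.30.

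Of 17 matrix partners 13 were lower and 2 higher in liver in both comparisons. The basement membrane linker NID1 had the largest difference, -6.48 for HL vs. HM and -6.90 for CL vs. CM, and the laminin chains LAMB1 and LAMC1, the proteoglycan HSPG2 (perlecan) and SPARC, which binds collagen, differed by between -3.66 and -4.65. FN1, which hepatocytes secrete into plasma, and TNC were the higher ones. Among the receptors 4 of 5 in HL vs. HM and 4 of 4 in CL vs. CM were lower, among them ITGB1, the common beta chain of the collagen-binding integrins, at -1.87 and -2.12. In HL vs. CL 12 matrix partners and 2 receptors passed the filter, against 17 and 5 in HM vs. CM. Part of both lists thus passed mainly through breast muscle, and for those genes the differences are a description only. Of the 9 regulators 3 were lower for HL vs. HM and 4 for CL vs. CM, with TGFB2, TGFB3 and TGFBR2 in both, and 0 were higher.

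Linseed oil and duck oil were compared next within each tissue, first in the liver. No collagen gene was a DEG in HL vs. CL among the 14 tested, where 0.126% of all 9543 genes were, and at an unadjusted p below 0.05 there was 1 of 14 (COL13A1), where 12.3% of all genes were. With the DESeq2 test and the same thresholds, the paper reports many more DEGs between the diets in both tissues. The lack of collagen calls therefore holds for the tests used here. The median log2 fold change was 0.03 over the 14 collagen genes and -0.03 over all genes. The groups HL and CL overlapped for every collagen gene tested, where 2.8% of all genes did not overlap. The count over all genes depended on CL 1. With CL 1 left out 35 genes were DEGs higher in HL and 61 lower, 1.0% of all genes tested. With any other library left out the share was at most 0.6%. Without CL 1, too, 0 of the 14 collagen genes were DEGs.

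COL13A1 had 4.01, 1.86, 2.71, 1.72 and 1.505 FPKM in HL against 0.503, 0.946, 2.03, 1.20 and 1.13 FPKM in CL. The difference of 0.62 (SE 0.23) did not pass the adjusted threshold (limma, adjusted p = 0.282), and 3 HL values lay within the CL range. COL4A1 had 16.6, 15.2, 14.7, 14.9 and 15.4 FPKM in HL against 12.5, 17, 11.3, 11.4 and 7.42 FPKM in CL, a difference of 0.38 (SE 0.18) (limma, adjusted p = 0.423). Its values were close together in HL and spread in CL, with the highest and the lowest of the 10 livers, CL 2 and CL 5, both in CL. COL4A2 went with it at 0.30 (SE 0.18) (limma, adjusted p = 0.544). COL18A1 had 1.41, 1.75, 2.24, 1.10 and 1.21 FPKM in HL against 0.885, 2.35, 6.44, 3.36 and 3.17 FPKM in CL, with 4 of 5 CL libraries above every HL library and CL 1 below all of them. Its difference was -0.62 (SE 0.30) (limma, adjusted p = 0.430). Without CL 1 it was -0.88 (limma, adjusted p = 0.0645). With CL 2 left out the collagen genes with an unadjusted p below 0.05 were 3, COL4A1, COL4A2 and COL13A1. Their smallest adjusted p was 0.322 (limma), and the count was higher than in any other run with 1 library left out. The share of all genes below that p without CL 2 is not given here, so this count has no share beside it.

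The fibrillar collagens of the liver differed between the diets by less than their spread between ducks. COL1A1 averaged 3.54 ± 1.93 FPKM in HL and 3.56 ± 2.18 FPKM in CL, COL1A2 7.53 ± 2.59 FPKM in HL and 7.22 ± 2.86 FPKM in CL, and COL3A1 18.4 ± 2.45 FPKM in HL and 21.4 ± 7.72 FPKM in CL (SD, n = 5 each). The 4 fibrillar genes tested had log2 fold changes from -0.14 to 0.09, with standard errors of up to 0.37, and adjusted p of at least 0.845 (limma). The other members tested, COL6A1, COL6A2, COL12A1, COL14A1, COL21A1 and COL23A1, ranged from -0.14 (COL6A2) to 0.35 (COL14A1).

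In the same livers the endothelial markers were higher in HL, with summed FPKM of 38.8 to 50.8 in HL against 14.1 to 27.3 in CL. All 6 tested had an unadjusted p below 0.05 (limma) and CDH5 and STAB2 were DEGs, at 1.34 and 1.59 (limma, adjusted p = 0.0133 and 0.0479). Macrophage markers summed to 96.8 to 470.4 FPKM in HL against 28.2 to 138 FPKM in CL, with MRC1 a DEG. Fibroblast and stellate cell markers summed to 127 to 175 FPKM in HL against 115 to 169.9 FPKM in CL, and 0 of 8 tested had an unadjusted p below 0.05. The part of these cells in the values of COL4A1, COL4A2 and COL13A1 was not tested.

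Of the genes that make, bind or break down collagen, 0 were DEGs in HL vs. CL. ITGA1, the alpha chain of a receptor for type IV collagen, passed the adjusted threshold but not the fold threshold, with 10.3 FPKM in HL and 4.74 FPKM in CL and a difference of 0.97 (limma, adjusted p = 0.0459). PLOD2, which hydroxylates the lysines of the chain ends, had 7.70 FPKM in HL and 3.92 FPKM in CL (0.85; limma, adjusted p = 0.101). NID2, a linker of type IV and laminin, had 39.0 FPKM in HL and 61.2 FPKM in CL (-0.65; limma, adjusted p = 0.134).

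**Figure D4:**
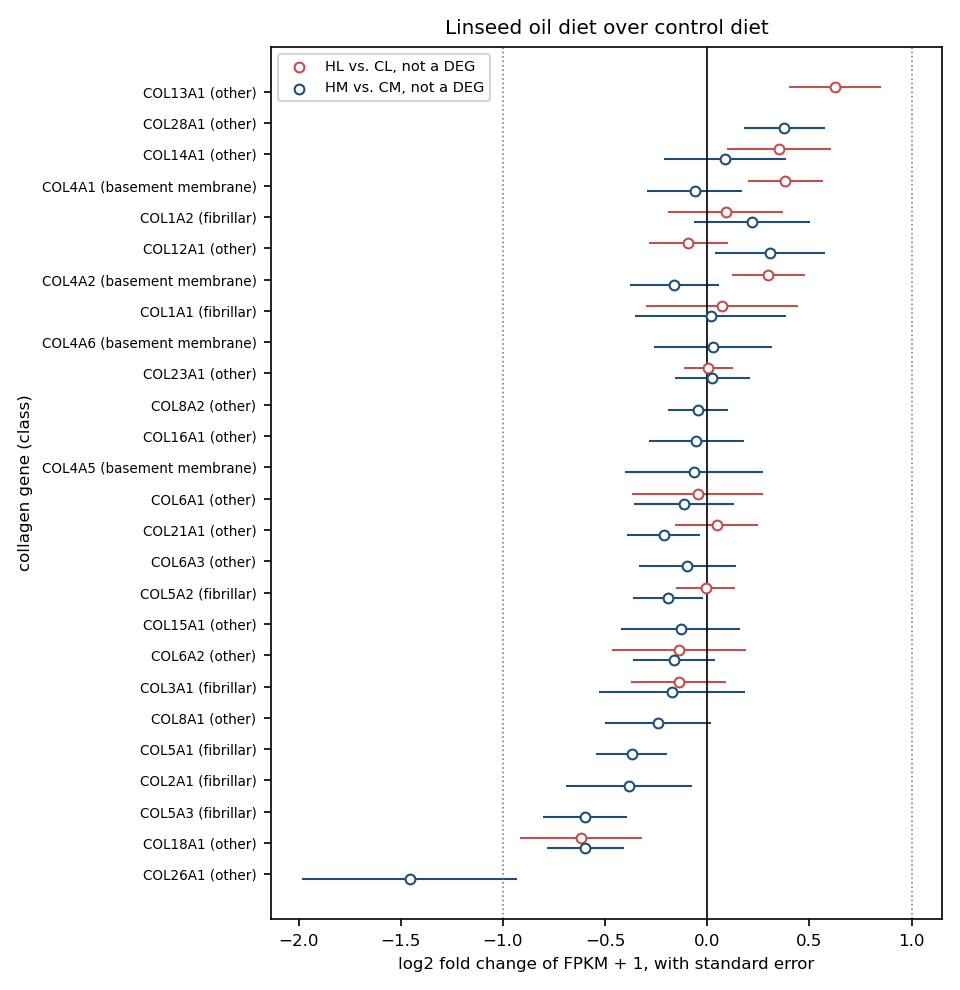
Log2 fold change (horizontal axis) of each tested collagen gene (rows, class in brackets) for HL vs. CL and for HM vs. CM, with standard errors; no point is a DEG, and dotted lines mark -1 and 1. Most points lie between -0.5 and 0.5, with COL26A1 at -1.46 in HM vs. CM.

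In the breast muscle, too, no collagen gene was a DEG between the diets. Of the 25 tested in HM vs. CM 0 were called, as were 0% of all 10148 genes tested. The paper reports DEGs between the diets in this tissue with DESeq2, so the lack of calls again holds for the tests used here. At an unadjusted p below 0.05 there were 3 of 25, all lower in HM, where 5.5% of all genes, and 3.04% in the direction lower, passed. In all, 18 of the 25 fold changes were below 0, where 50.9% of all genes were, and the median was -0.11 for the collagen genes and 0 to 2 decimals over all genes. HM and CM overlapped for every collagen gene tested, where 1.23% of all genes did not overlap.

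COL18A1 had 12.9, 12.5, 11.2, 8.16 and 10.9 FPKM in HM against 12.6, 16.7, 22.95, 14.01 and 21.9 FPKM in CM. It was -0.60 (SE 0.19) in HM vs. CM (limma, adjusted p = 0.667), and 4 of 5 CM libraries lay above every HM library. COL5A3 had 13.02, 16.2, 7.66, 11.9 and 9.19 FPKM in HM against 12.8, 19.3, 23.04, 16.2 and 17.9 FPKM in CM, a difference of -0.60 (SE 0.20) (limma, adjusted p = 0.730). The CM libraries were the higher ones but CM 1 lay below HM 1 and HM 2. COL26A1 had 7.51, 4.36, 3.13, 0.781 and 0.915 FPKM in HM against 4.24, 16, 14.1, 3.08 and 17.3 FPKM in CM. Its values spread widely in both diets, and its difference of -1.46 (SE 0.53) did not pass either (limma, adjusted p = 0.765).

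Library HM 2 changed how many genes had a low unadjusted p. Without it 7 of the 25 had one, 6 of them lower in HM (COL2A1, COL5A1, COL5A3, COL8A1, COL18A1 and COL26A1) and 1 higher (COL12A1, at 0.57), and the smallest adjusted p was 0.186 (limma). The share of all genes with a low unadjusted p without HM 2 is not given here. These counts therefore cannot be set against the share over all libraries, and do not tell whether the collagen genes differ from other genes. Within HM this library was the lowest for COL4A1, COL4A2, COL5A2, COL6A3, COL12A1, COL14A1, COL15A1 and COL23A1 and the highest for COL2A1, COL5A1, COL5A3, COL6A1, COL6A2, COL8A1, COL16A1 and COL21A1. COL28A1 had 1.20, 1.29, 1.67, 1.39 and 0.907 FPKM in HM against 2.00, 0.358, 0.549, 0.720 and 0.526 FPKM in CM, so that 4 of 5 CM libraries lay below every HM library and CM 1 above all of them.

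The most abundant collagens of the muscle differed between the diets by less than their spread between ducks. COL4A1 averaged 352 ± 106 FPKM in HM and 356 ± 54.7 FPKM in CM, COL1A2 205 ± 73.6 FPKM in HM and 169 ± 40.0 FPKM in CM, and COL6A2 104 ± 23.7 FPKM in HM and 116 ± 22.6 FPKM in CM (SD, n = 5 each). Their log2 fold changes were -0.06 (SE 0.23), 0.22 (SE 0.29) and -0.16 (SE 0.20) in that order. Among the genes that make, bind or break down collagen 0 were DEGs, and those with an unadjusted p below 0.05 were TIMP4 (0.64) and FMOD (1.001), higher in HM, and TGFB3 (-0.43) and TGFBR2 (-0.47), lower in HM (limma, adjusted p = 0.847, 0.847, 0.847 and 0.871). FMOD, a proteoglycan of collagen fibrils, is also a tendon marker, and the tendon markers summed to 6.11 to 39.9 FPKM in HM against 4.64 to 12.98 FPKM in CM; their part in the values of the fibrillar collagens was not tested.

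Whether linseed oil acted differently on a gene in both tissues was tested as the interaction of diet and tissue. Of the 26 collagen genes tested 0 passed, where 0.00888% of all genes (1 of 11256) did. At an unadjusted p below 0.05 there were 2 of 26, COL26A1 and COL13A1, where 8.11% of all genes passed. Without HM 2 there were 3 of 26, COL26A1, COL2A1 and COL12A1, at 1.66, 0.66 and -0.67, and the smallest adjusted p was 0.392 (limma). COL13A1 then had an unadjusted p of 0.0509 (limma). The share of all genes without HM 2 is not given here, so this count has no share beside it. For COL26A1 the difference of the 2 log2 fold changes (liver minus breast muscle) was 1.52 (SE 0.57) and for COL13A1 0.61 (SE 0.27) (limma, adjusted p = 0.446 and 0.582).

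Chains of one collagen type assemble with each other, so the ratio of their transcripts was compared between the groups. Types V and VI have further chains, such as COL5A3 and COL6A6, so their ratios need not be constant. The type I molecule holds more alpha-1 than alpha-2 chains, yet the FPKM of COL1A1 was below that of COL1A2 in all 20 libraries. The ratio COL1A1/COL1A2 was 0.455 ± 0.0987 in HL and 0.411 ± 0.0997 in HM, and 0.482 ± 0.192 in CL and 0.466 ± 0.0550 in CM (SD, n = 5 each). COL4A1/COL4A2 was 1.25 ± 0.0863 in HL and 1.52 ± 0.0687 in HM, and 1.19 ± 0.115 in CL and 1.42 ± 0.145 in CM. In HL vs. HM the libraries did not overlap, with 1.15 to 1.35 in HL against 1.41 to 1.60 in HM.

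COL6A3/COL6A1 was 0.230 ± 0.0870 in HL and 0.620 ± 0.214 in HM, and 0.257 ± 0.0846 in CL and 0.580 ± 0.0652 in CM, so the means of both livers lay below those of both breast muscles. In HL vs. HM these ratios overlapped through HM 2 alone, at 0.290. COL6A1/COL6A2 was 0.514 ± 0.0937 in HL and 0.645 ± 0.0526 in HM, and 0.473 ± 0.114 in CL and 0.632 ± 0.120 in CM. COL5A1/COL5A2 went the other way, with 0.215 ± 0.0954 in HL and 0.136 ± 0.0507 in HM, and 0.294 ± 0.0956 in CL and 0.162 ± 0.0569 in CM. Over the 20 comparisons of the 5 ratios no difference passed after adjustment: the smallest adjusted p was 0.0794 (exact two-sided permutation tests, Benjamini-Hochberg), where the smallest p that 5 against 5 libraries can give is 0.00794. The smallest adjusted p was shared by COL4A1/COL4A2, COL6A1/COL6A2 and COL6A3/COL6A1 in HL vs. HM and COL6A3/COL6A1 in CL vs. CM. Without HM 2 the log2 difference in HL vs. HM was -1.66 for COL6A3/COL6A1, against -1.41 with it, and 0.83 for COL5A1/COL5A2, against 0.63 with it, and neither passed after adjustment. Between the diets the adjusted p ran from 0.406 to 0.992 (exact permutation tests).

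**Figure D5:**
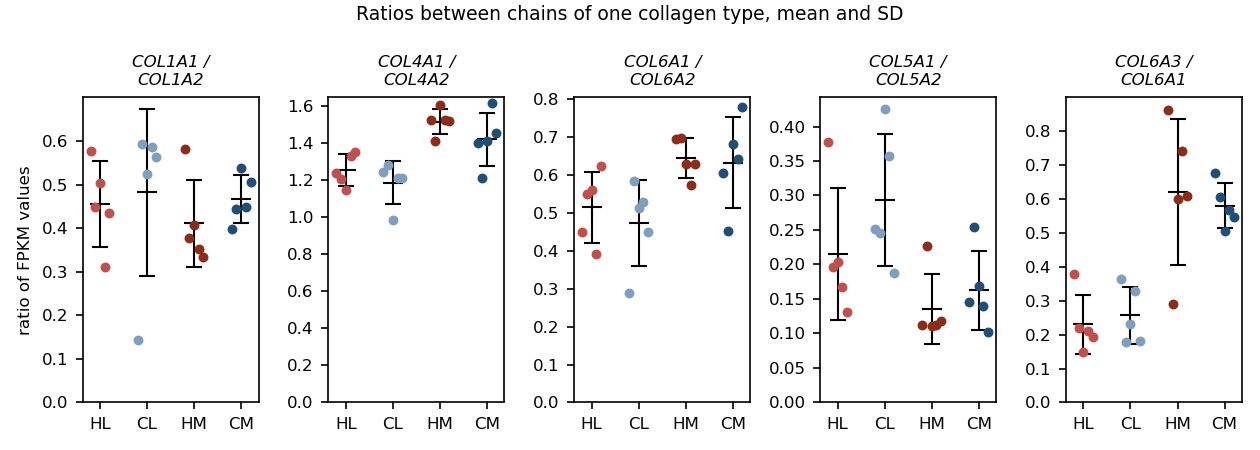
Ratio of the FPKM of both chains (vertical axis, from 0) for 5 pairs of collagen chains in HL, CL, HM and CM; points are libraries and bars the mean and the SD (n = 5). COL6A3/COL6A1 averages 0.230 in HL and 0.620 in HM, and 0.257 in CL and 0.580 in CM, and the COL1A1/COL1A2 ratio of CL 1, 0.143, lies far below the others.

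Chains of one type varied together between the ducks of a tissue. Over the 10 livers Pearson's r was 0.93 for COL4A1 and COL4A2, 0.91 for COL6A1 and COL6A2 and 0.77 for COL1A1 and COL1A2, with Spearman's rho of 0.75, 0.92 and 0.85 (permutation tests with 100000 pairings, adjusted p over 8 tests from 6.80e-04 to 0.0225). Over the 10 breast muscles r was 0.94 for COL4A1 and COL4A2, 0.86 for COL6A1 and COL6A2, 0.93 for COL1A1 and COL1A2 and 0.87 for COL1A2 and COL3A1, with rho of 0.71, 0.82, 0.85 and 0.82 (permutation tests, adjusted p from 6.80e-04 to 0.0316). For COL1A2 and COL3A1 in the liver no relation passed, with r = 0.46 and rho = 0.28 (permutation tests, adjusted p = 0.172 and 0.429). With each value centred on its diet, r stayed between 0.77 and 0.96 for the pairs of one type.

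Without the 2 libraries farthest from the median, r was 0.92, 0.94 and 0.87 for the type IV, VI and I pairs in liver. In breast muscle it was 0.88 for the type I pair, and it dropped to 0.69 for type IV, 0.67 for type VI and 0.66 for COL1A2 and COL3A1. HM 4 was 1 of the 2 left out in each case, the type I pair included. The relations that dropped rest in part on the libraries left out. Leaving out the farthest libraries also narrows the range of the values, so the drop does not single out HM 4. Depth and the authors' scaling are shared by all genes of a library, and their part in these relations was not tested.

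Rows near the collagen genes bear on a few of them. COL3A1 and COL5A2 lie tail to tail with 8805 bases and 1 gene between them, and COL6A2 and COL6A1 lie on the same strand 20721 bases apart. A further 20 rows without a collagen symbol have a description that names a collagen alpha chain, and these were not counted among the 41. The highest of them, LOC119716128 and LOC119716125, are described by their likeness to type XV and averaged at most 0.284 FPKM in HL and CL, against 23.3 and 9.74 FPKM in HM and 23.8 and 14.03 FPKM in CM. LOC119716128 is listed as an uncharacterized long noncoding RNA. Per the study's mapping notes only reads with a single place in the genome were quantified. Reads that these rows share with COL15A1 would therefore be missing from the level of COL15A1. The same limit holds for COL14A1 and COL1A1. LOC119716034, described as like type XIV, averaged 1.58 FPKM in HL, 2.02 in CL, 3.78 in HM and 4.77 in CM, above COL14A1 in each group. LOC106016943, described as like the alpha-1 chain of type I, averaged 5.11 FPKM in HM and 6.67 FPKM in CM. Whether these rows share reads was not tested.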

How the data were processed

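RNA-seq was done on liver and breast muscle of 10 ducks, giving 20 libraries in 4 groups of 5 taken from the sample labels. Poly(A) RNA was sequenced on an Illumina instrument, and the authors aligned the reads with HISAT2 version 2.0.5 to the duck assembly ZJU1.0, quantified uniquely mapped reads and deposited FPKM per gene. The counting tool is not given in the sources used here. In each library 100% of the values came out as whole fragments (within 0.02 of a fragment), so fragments per gene were recovered from the deposited values for depth and for 1 alternative.

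FPKM values were tested as log2(FPKM + 1) with limma 3.58.1 (R 4.3.3) and an intensity trend, on genes with at least 1 FPKM in at least 5 of the libraries compared, with Benjamini-Hochberg adjustment over all genes tested. Fold changes on this scale understate the change of low genes. Diets were compared within a tissue, tissues within a diet, and the interaction over all 20 libraries. Chain ratios were tested with exact permutation tests and correlations with permutation tests (scipy 1.17.1). Tested on simulated data, the liver diet fit (9645 genes) recovered 90.4% of genes changed by 2 on the log2 scale. Every simulated gene was given the same dispersion, and changes as small as those of the collagen genes between the diets were not simulated. The recovery therefore does not tell how often such a change in a collagen gene would be called.

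The collagen genes, gene lists and tests were chosen with earlier results of these data known. Values per library are given for the 3 members with the highest mean in each class and tissue, the 3 with the smallest p in each diet comparison, the 3 largest tissue differences in each direction and further members chosen after their values were seen, as were some of the genes named from the lists. Alternatives changed the pseudocount, filter, normalization, libraries fitted, eBayes step, replicate block and unit. The p-values measure the spread between these ducks.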

Additional observations from a re-analysis of the deposited data

Results flagged for a closer look

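In 6 of the 95 groups of 5 examined (75 of collagen levels, 20 of chain ratios), 1 library lay far from the other 4, where chance gives about 1 in 20 groups. Library HM 2 was low for COL12A1, with 2.38 FPKM against 6.44 to 8.76 FPKM in the other HM libraries, and for COL23A1, with 3.44 FPKM against 6.36 to 7.76 FPKM. Its COL5A1/COL5A2 ratio was high, at 0.226 against 0.111 to 0.118. Library HM 1 had 20.3 FPKM of COL4A5, against 4.40 to 6.94 FPKM in the other HM libraries. In CL 1 the COL1A1/COL1A2 ratio was 0.143, against 0.524 to 0.593 in the other CL libraries, and rests on 38 fragments of COL1A1. In CL 3 the COL4A1/COL4A2 ratio was 0.986, against 1.21 to 1.28 in the other CL libraries.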

How the results depend on the processing

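No alternative run made a collagen gene a DEG between the diets or in the interaction. With a filter of 5 FPKM in 5 or more libraries, 12 collagen genes were DEGs for HL vs. HM and 13 for CL vs. CM. This is every one then tested, against 44.7% and 46.4% of all genes tested. Only 5 collagen genes passed this filter in the liver diet comparison, so most of these passed it through breast muscle, where they are high. With 1 library left out the counts were 19 to 20 for HL vs. HM and 20 to 21 for CL vs. CM. The shares of all genes tested were then 39.9% to 40.4% and 41.7% to 42.7%. On recovered fragments (voom) they were 27 of 33 tested (25 lower and 2 higher in liver) and 29 of 34 (27 lower and 2 higher), and the higher ones were COL13A1 and COL6A6 in both comparisons. Between liver and breast muscle of the same diet, r of same-numbered libraries ran from -0.12 to 0.26. This does not settle whether they came from the same duck. The replicate block left 0 collagen DEGs in each diet comparison, 19 for HL vs. HM and 20 for CL vs. CM. In these tissue comparisons 40.3% and 42.4% of all genes tested were DEGs with the block.

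The log2 differences of the chain ratios moved when 1 library was left out, and the cause was not tested. COL1A1/COL1A2 ran from -0.35 to 0.18 in HL vs. CL and from -0.23 to 0.29 in CL vs. CM, and COL6A1/COL6A2 from -0.027 to 0.24 in HL vs. CL and from -0.067 to 0.13 in HM vs. CM. COL6A3/COL6A1 ran from -0.13 to 0.27 in HM vs. CM. In CL vs. CM the ranges were -0.32 to -0.19 for COL4A1/COL4A2, -0.55 to -0.27 for COL6A1/COL6A2, 0.71 to 1.04 for COL5A1/COL5A2 and -1.37 to -1.12 for COL6A3/COL6A1, and without CM 2 all 4 reached an adjusted p of 0.0454 (exact permutation tests). Without the 2 libraries farthest from the median, r was 0.14 for COL1A2 and COL3A1 in liver, and in breast muscle 0.66 for that pair, 0.69 for COL4A1 and COL4A2 and 0.67 for COL6A1 and COL6A2. Low FPKM rest on few fragments, and the 15 collagen genes below the filter were not tested.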
